A study of Mus musculus with 15 samples.

Results

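Chromosome 15 was described as 1 of the 19 autosomes of EL4 cells, a line from a mouse T lymphocyte lymphoma of strain C57BL/6N. Its members were chosen by position alone: every interval on chromosome 15 in the 12 peak lists, which hold H3K4me3, H3K9ac, H3K27ac, H3K27me3 and H3K36me2 from chromatin immunoprecipitation followed by sequencing (ChIP-seq) and open chromatin from ATAC-seq, with 2 replicates each. This gave 15627 of the 334243 intervals of the series. Overlapping or adjoining intervals of both replicates of a set were merged, which left 7689 of the 169071 autosomal merged peaks on the chromosome: 799 for H3K4me3, 939 for H3K9ac, 1315 for H3K27ac, 879 for ATAC-seq, 2315 for H3K27me3 and 1442 for H3K36me2. The chromosome was chosen with earlier results on these lists known, so all values are descriptions and no test was run. The labels name no treatment, and all lists come from the same line, so nothing here separates EL4 cells from T cells in general. Replicates are technical according to the methods, so the difference between them holds no variation among cultures. The lists hold positions only, and the depth behind each peak and the copy number of each chromosome in this line are unknown. A difference between chromosomes in either cannot be told apart here from a difference in the marks.

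H3K4me3 marks active and poised promoters, and H3K9ac and H3K27ac mark active promoters and, for H3K27ac, active enhancers. ATAC-seq finds DNA that a transposase can reach. H3K27me3 is laid down by the Polycomb complex PRC2 over silenced genes, often in wide domains, and H3K36me2 is laid down by enzymes of the NSD family over wide stretches within and between genes. H3K36 methylation hinders PRC2 on the same histone tail, so places where both broad marks were called in the same cell population are of interest. The 4 sets of short peaks (H3K4me3, H3K9ac, H3K27ac and ATAC-seq) are called narrow sets below, and H3K27me3 and H3K36me2 are called broad marks. A stretch called for both broad marks is a double-mark region.

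On chromosome 15, 71 double-mark regions were found. The promoters of 4 protein-coding genes at such regions are shown, picked for their contrast in sequence and in the other marks they hold. Each is the RefSeq promoter of GRCm38.p6, 250 bases before to 50 bases after the start, on the plus strand, with each CG dinucleotide in capitals. CG reads alike on both strands. It was the only motif counted, and 95.8% of the 936 listed promoters of the chromosome hold at least 1, against 94.8% of 31396 on all autosomes. The promoters are those of Rictor (chr15:6708131-6708430), Tafa5 (chr15:87624980-87625279), C9 (chr15:6445096-6445395) and Cacnb3 (chr15:98634517-98634816).
Rictor: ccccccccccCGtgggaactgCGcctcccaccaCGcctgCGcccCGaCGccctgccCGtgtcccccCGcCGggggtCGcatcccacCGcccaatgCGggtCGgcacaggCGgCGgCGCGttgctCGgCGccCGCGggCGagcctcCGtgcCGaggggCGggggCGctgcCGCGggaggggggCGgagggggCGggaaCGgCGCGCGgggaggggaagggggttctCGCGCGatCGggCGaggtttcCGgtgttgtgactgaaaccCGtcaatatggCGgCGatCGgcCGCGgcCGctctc
Tafa5: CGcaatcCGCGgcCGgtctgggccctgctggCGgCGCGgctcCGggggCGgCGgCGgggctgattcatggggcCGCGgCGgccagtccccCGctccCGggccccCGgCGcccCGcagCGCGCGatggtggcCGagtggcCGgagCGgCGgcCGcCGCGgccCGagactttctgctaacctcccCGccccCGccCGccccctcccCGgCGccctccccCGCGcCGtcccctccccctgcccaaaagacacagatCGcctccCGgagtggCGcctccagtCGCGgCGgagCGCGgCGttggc
C9: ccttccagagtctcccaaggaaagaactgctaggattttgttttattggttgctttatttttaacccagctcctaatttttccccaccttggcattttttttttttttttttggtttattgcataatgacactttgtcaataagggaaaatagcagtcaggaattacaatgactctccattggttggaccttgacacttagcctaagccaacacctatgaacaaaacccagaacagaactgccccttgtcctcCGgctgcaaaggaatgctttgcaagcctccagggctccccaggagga
Cacnb3: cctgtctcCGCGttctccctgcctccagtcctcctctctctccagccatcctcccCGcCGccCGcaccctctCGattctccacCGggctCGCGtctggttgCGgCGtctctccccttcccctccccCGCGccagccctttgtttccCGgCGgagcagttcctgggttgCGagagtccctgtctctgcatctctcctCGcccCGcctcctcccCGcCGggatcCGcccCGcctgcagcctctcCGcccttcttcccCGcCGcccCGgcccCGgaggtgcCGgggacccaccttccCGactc

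Rictor encodes a core subunit of the mTORC2 kinase complex, and its promoter held 47 CG. Peaks of all 6 sets covered some of this promoter. Tafa5, which encodes a secreted protein of the nervous system, also had 47 CG but held H3K27me3 in both replicates, H3K36me2 in replicate 1 only, and no narrow set. The promoter of C9, a complement component made in liver, held 1 CG and lay inside a double-mark region with no narrow set, where H3K36me2 was called in replicate 2 only. Without that library for each, neither of these promoters would count as double-marked. Cacnb3, which encodes a calcium channel subunit, had 29 CG, and its promoter, which held every set but H3K36me2, ended 184 bp before the start of a double-mark region. Another coding promoter, that of Slc2a13, lay 12 bp from a double-mark region and is not shown. It held 13 CG and, of the 6 sets, H3K27me3 alone.

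A microRNA gene also lay in a double-mark region. Mir196a-2 in the Hoxc cluster gives the mature products miR-196a-5p (chr15:102973365-102973386) and miR-196a-2-3p (chr15:102973401-102973422), shown 5′ to 3′ from RefSeq with the seed, bases 2 to 8, in capitals.
mmu-miR-196a-5p: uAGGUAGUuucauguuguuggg
mmu-miR-196a-2-3p: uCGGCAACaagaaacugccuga

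The first question was how densely each set occupied the chromosome. Density was the number of merged peaks per Mb over the stretch from the first to the last base called on the chromosome, a length of 100.7 Mb on chromosome 15. H3K27me3 was denser here than on most autosomes, with 23.0 peaks per Mb against a median of 15.9 over the other 18 autosomes (range 11.2 to 35.5). The ratio to that median was 1.44 for the merged peaks and 1.61 and 1.62 in replicates 1 and 2. H3K36me2 had fewer and wider peaks, with 14.3 per Mb against a median of 17.6. Its ratio of 0.812 rose to 0.927 and 0.905 in the single replicates and stayed below 1.

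The narrow sets lay within the range of the other autosomes, with density ranks from 5 (H3K27ac) to 10 (ATAC-seq) of 19. H3K27ac, the mark of active enhancers and promoters, reached 13.1 peaks per Mb against a median of 11.2, and ranked 5 of 19 in density. The ratio was 1.17, and 1.17 and 1.18 in replicates 1 and 2. H3K9ac had a ratio of 1.14, H3K4me3 of 1.07 and ATAC-seq of 1.03, all well inside the range of the other autosomes. In all, 5 of the 6 sets were denser than the median of the other autosomes, and none ranked first or last. Protein-coding genes stood at 7.70 per Mb against a median of 8.06, so gene density did not stand out either.

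By length covered, all 6 sets lay above the median of the other autosomes, and H3K27me3 had the largest ratio, 2.002. It covered 28.1% of the chromosome against a median of 14.03% elsewhere, and 22.1% and 24.1% in replicates 1 and 2. Only chromosome 19 was covered more by this mark, at 32.1%. H3K36me2 covered 19.7% against a median of 16.7%, with 16.3% in each replicate, and ranked 3 for merged peaks. Both marks together covered 47.6% of the chromosome, against a median of 31.4%. The ratio of H3K27ac (1.64% against 1.33%) was 1.23, above that of H3K36me2 (1.18), and those of H3K9ac, H3K4me3 and ATAC-seq were 1.15, 1.07 and 1.05.

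Broad peaks were wide on this chromosome. The median H3K27me3 peak measured 6599 bp, above the highest value of any other autosome, 6199 bp. Replicate 1 gave 5199 bp and replicate 2 gave 7199 bp, and each ranked first within its own lists. The median H3K36me2 peak measured 7999 bp against 5699 bp elsewhere and a highest value of 7799 bp on another autosome. Its replicates gave 6999 and 6799 bp, each the highest value but shared, with chromosome 8 in replicate 1 and with chromosomes 5 and 8 in replicate 2. Median widths of the narrow sets lay between 0.983 (ATAC-seq, 437 bp) and 1.06 (H3K27ac, 893 bp) times the median of the other autosomes.

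Several of the longest peaks lay on genes, but not all. The longest H3K9ac peak, 9821 bp at chr15:85665022-85674842, met no protein-coding gene. Neither did the second longest H3K27ac peak (10822 bp) or the third longest H3K36me2 peak (128.6 kb). The longest H3K27me3 peak, 211.2 kb at chr15:102732801-102943999, ran over Hoxc13 and Hoxc12, homeobox genes that Polycomb silences in most adult tissues. The next covered Dab2 over 158.0 kb, and the next lay in Pdzd2 over 137.2 kb. The longest H3K36me2 peak spanned 171.2 kb over Myo10 and Retreg1. The longest H3K4me3 and H3K27ac peaks both lay in Fyb, an adaptor protein of T cell receptor signalling, with 10449 and 14645 bp. No other autosome had a longer merged H3K27ac peak, though the next reached 14622 bp and in each replicate alone the chromosome ranked 2. Each of these merged peaks overlapped calls of both replicates, but the longest broad ones were joined from shorter intervals. The longest single H3K27me3 interval measured 160799 bp in replicate 1 and 186199 bp in replicate 2. For H3K36me2 these lengths were 117999 and 129199 bp.

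Replicate agreement was taken as the Jaccard index, the base pairs in both replicates over those in either. For H3K27me3 it was 0.645 on chromosome 15, where the other autosomes ranged from 0.311 to 0.557. For H3K36me2 it was 0.660, which ranked 3 of 19, against a median of 0.576. The narrow sets did not share this shift: H3K4me3 reached 0.920, H3K9ac 0.870, H3K27ac 0.868 and ATAC-seq 0.649, each within 0.01 of the median elsewhere.

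Agreement of the broad marks moved with how much they covered and how wide their peaks were. Over the 19 autosomes, the Jaccard index of H3K27me3 had a Pearson correlation of 0.736 with coverage and 0.879 with median width, and that of H3K36me2 had 0.793 and 0.882. The autosomes share the same libraries, so these are descriptions. Chromosome 19 had more H3K27me3 than chromosome 15 but an index of 0.538 and a median width of 5999 bp. Whether wide domains account for the agreement on chromosome 15 was not tested.

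**Figure D1:**
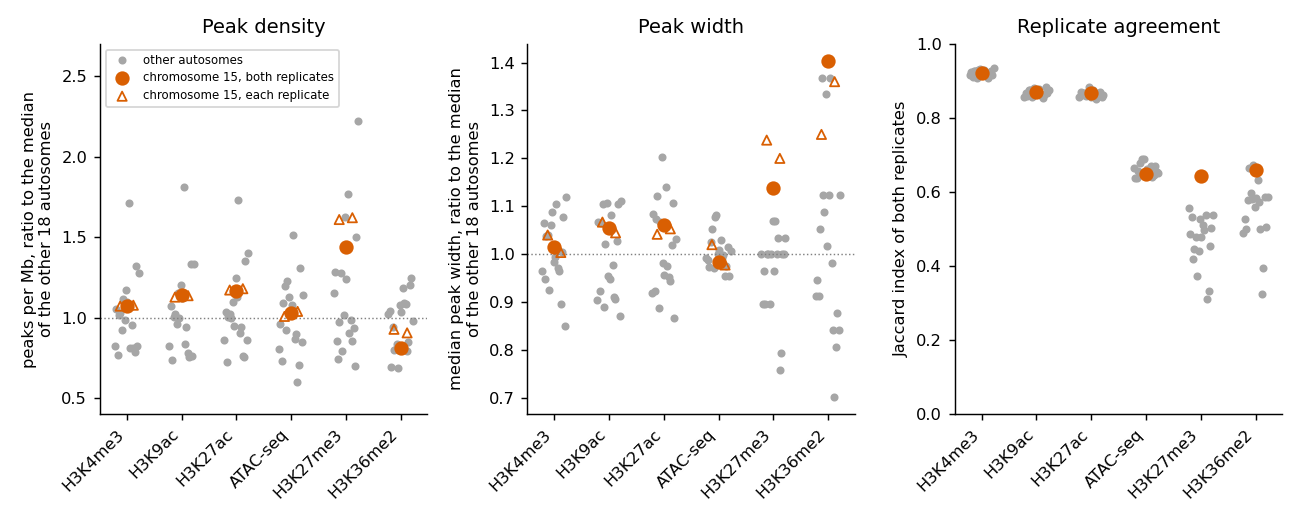
Peak density (peaks per Mb) and median peak width, each as a ratio to the median of the other 18 autosomes, and the replicate Jaccard index, for 6 peak sets. Grey points are the other autosomes, orange points chromosome 15 with both replicates merged, and open triangles its single replicates. For H3K27me3 the width ratio (1.14) and the Jaccard index (0.645) of chromosome 15 lie above all grey points, whereas the narrow sets lie among them.

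Overlap between sets was described as the share of a set's merged peaks that met a second set by 1 bp or more. All 5 other sets met H3K36me2 more often here than on any other autosome. This held for 66.5% of H3K4me3 peaks, against a highest value of 63.8% elsewhere. It held for 70.6% of H3K9ac peaks against 65.8%, for 77.3% of H3K27ac peaks against 71.1%, for 53.9% of ATAC-seq peaks against 50.4%, and for 2.81% of H3K27me3 peaks against 1.86%. In each replicate taken alone, the 4 narrow sets ranked first as well, with 65.7% and 65.3% for H3K27ac. H3K27me3 ranked first in replicate 2 (1.40%) but not in replicate 1, where 1.00% lay below the 1.02% of chromosome 17. H3K36me2 covered 19.7% of the chromosome, which ranked 3, and its part in these shares was not tested.

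**Figure D2:**
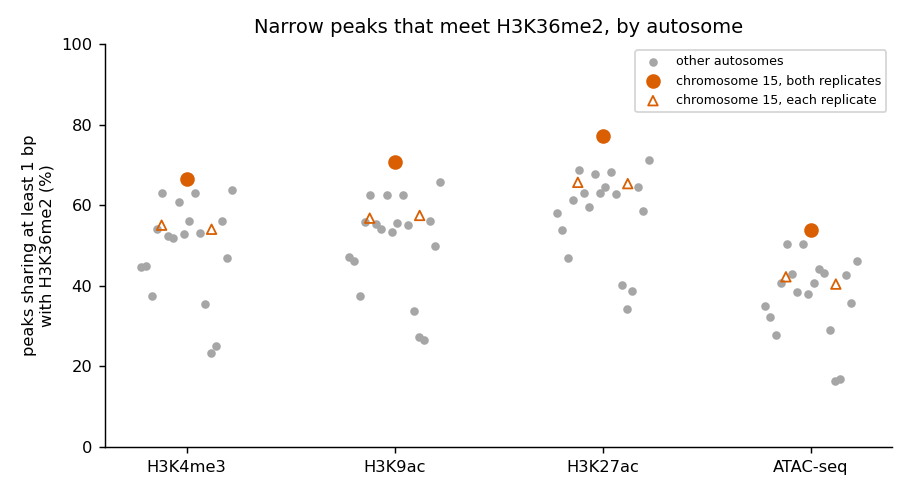
Share of H3K4me3, H3K9ac, H3K27ac and ATAC-seq peaks (%) that met an H3K36me2 peak by 1 bp or more. Grey points are the other 18 autosomes, orange points are chromosome 15 with both replicates merged, and open triangles are its replicates 1 and 2. The orange points run from 53.9% for ATAC-seq to 77.3% for H3K27ac and lie above all grey points of their set.

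H3K27ac was more often away from promoter marks here. Of the H3K27ac peaks, 58.9% met an H3K4me3 peak, the lowest share of the 19 autosomes, where the others ranged from 59.1 to 70.4%. In the single replicates the share was 60.5% and 58.5%, which ranked 18 and 19. A share of 35.1% met neither H3K4me3 nor ATAC-seq, against a median of 29.1%, and this ranked first in the merged peaks and in each replicate. H3K9ac showed the same, with 83.6% of peaks on H3K4me3 against a median of 88.2%. H3K4me3 peaks met H3K9ac in 89.7% and H3K27ac in 92.0%, both above the median.

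Contact between H3K27me3 and the other sets was rare but, in shares of merged peaks, above the median of the other autosomes in all cases. H3K27me3 also covered 2.002 times the median length, and its part in these shares was not tested. By base pairs, the Jaccard index of H3K4me3 and H3K27me3 was only 1.08 times the median, and 0.984 times in replicate 1. Of the H3K4me3 peaks, 3.13% met H3K27me3 against a median of 1.63%, and of the ATAC-seq peaks 3.41% did against 1.23%. Of the H3K36me2 peaks, 4.92% met H3K27me3 against a median of 0.868% and a highest value of 2.62%. In replicates 1 and 2 alone this share was lower, 1.73% and 1.95%, and ranked first in each. The single replicates gave 1.76% and 2.55% for H3K4me3 and 1.67% and 2.79% for ATAC-seq. In replicate 1 these ranked 3 and 2. By base pairs, 10 of 15 pairs of sets had a larger Jaccard index here than at the median of the other autosomes. The pair of H3K27me3 and H3K36me2 stood at 0.00410 against 0.00345 on the next autosome, and the 5 pairs below the median were among the narrow sets. Of the 30 directed shares, 24 were above the median, 13 ranked first and 2 ranked last.

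Along the chromosome the sets fell into a few zones, which were described in 101 bins of 1 Mb. H3K4me3 and H3K9ac base pairs per bin had a Pearson correlation of 0.991, and H3K27ac and H3K36me2 one of 0.779. H3K27me3 and H3K36me2 gave a Pearson value of -0.183 and a Spearman value of 0.0235, so bins rich in the one were neither regularly poor nor rich in the other. The medians of the other autosomes for this pair were -0.0724 and 0.208, and chromosome 15 ranked 15 by each. For H3K27ac and H3K36me2 the median Pearson value elsewhere was 0.821, and chromosome 15 ranked 17. For H3K4me3 and H3K9ac it was 0.993, with rank 12. Bins share the same libraries, and these values carry no p. Both broad marks were present in 75 bins (74.3%), which ranked 4 by share. In 14 bins at least 80% of the bases lay in either broad mark, against 27 such bins on all other autosomes together and at most 10 on any of them.

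The fullest bins differed by mark. H3K4me3, H3K9ac and H3K27ac had their most base pairs in the bin from 76 to 77 Mb, which holds 52 protein-coding genes, among them Hsf1, the heat shock transcription factor. There H3K27ac covered 69.7 kb and H3K27me3 35.6 kb. The bin from 93 to 94 Mb, with only 5 coding genes including the planar polarity gene Prickle1, held 66.2 kb of H3K27ac. H3K27me3 filled 897.8 kb of the bin from 11 to 12 Mb, with 870.4 and 877.6 kb in replicates 1 and 2. That bin holds Npr3, a natriuretic peptide receptor, and Adamts12, a metalloprotease. The next fullest, from 42 to 43 Mb, held 850.5 kb and a single coding gene, Angpt1, an angiopoietin. H3K36me2 was fullest from 36 to 37 Mb, with 679.2 kb over Pabpc1, Ywhaz and their neighbours.

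The Myc locus sat at a sharp change of broad mark. In the bin from 61 to 62 Mb, which holds Myc, H3K27me3 covered 791.1 kb and H3K36me2 6.80 kb. Myc itself lies at the end of that bin, and no H3K27me3 peak came within 3 kb of it in either replicate. H3K36me2 covered 37.75% of the gene with its 3 kb flanks, in replicate 2 only. In the next bin, which holds the long noncoding gene Pvt1, H3K27me3 was absent from both replicates. H3K36me2 covered 515.5 kb there, with 349.3 and 368.7 kb in replicates 1 and 2. No double-mark region lay in either bin. From 63 to 64 Mb, H3K36me2 covered 480.3 kb and 39 H3K27ac peaks were called.

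**Figure D3:**
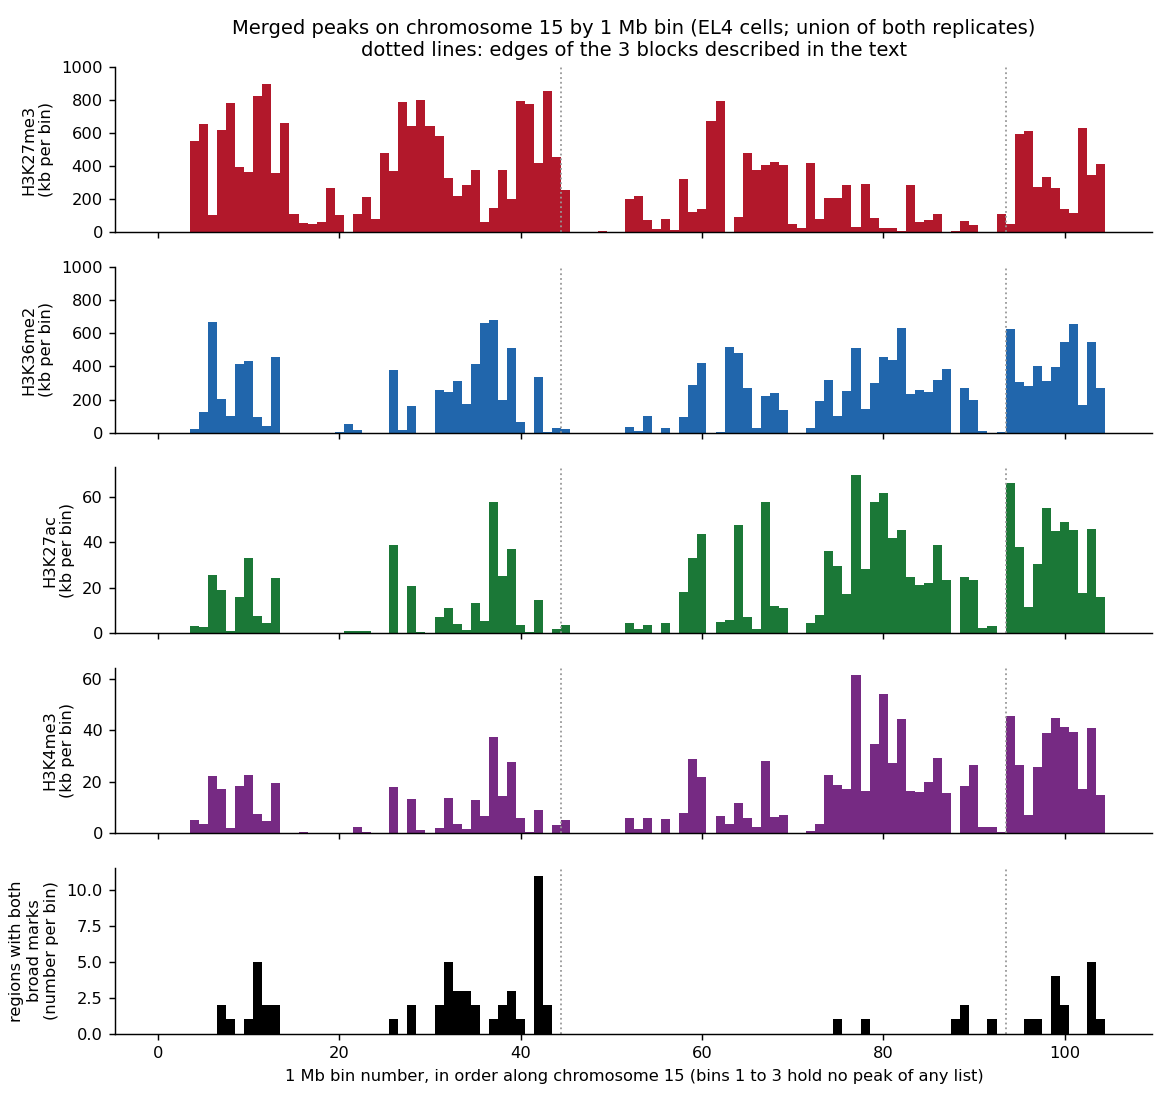
Base pairs (kb) covered by merged H3K27me3, H3K36me2, H3K27ac and H3K4me3 peaks, and the number of double-mark regions, in each 1 Mb bin in order along chromosome 15. Dotted lines separate the proximal, middle and distal blocks. Regions crowd into the blocks at both ends (51 and 14) and are rare in the middle block (6).

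For description the chromosome was cut into a proximal block up to 44 Mb, a middle block from 44 to 93 Mb and a distal block from 93 Mb, with edges set after the bins had been seen. H3K27me3 covered 41.3%, 15.6% and 34.5% of these blocks. Its replicate index was 0.703, 0.475 and 0.725, and the median peak width 8199, 5399 and 13999 bp. All 3 measures were lowest in the middle block, but coverage was highest in the proximal block and the other measures in the distal block. H3K36me2 covered 17.4%, 16.7% and 41.3%, with indices of 0.676, 0.576 and 0.785. In the middle block H3K27me3 coverage and agreement were close to the medians of the other autosomes (14.03% and 0.483).

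Genes and narrow peaks did not follow the same order. Protein-coding genes rose from 3.53 per Mb in the proximal block to 8.82 in the middle and 18.1 in the distal block, and H3K4me3 peaks from 4.83 in the proximal to 19.2 per Mb in the distal block. The proximal block was therefore poor in genes and rich in H3K27me3, and the distal block rich in both. Replicate indices of H3K27ac were 0.869, 0.870 and 0.865 for the same 3 blocks. ATAC-seq gave 0.647, 0.640 and 0.664.

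Double-mark regions had the largest ratio among the densities compared. Chromosome 15 held 71 of 404 regions on the autosomes, or 17.6%, on 4.21% of the summed span, and 196.3 of 915.8 kb. The density of 0.705 per Mb was 4.75 times the median of the other autosomes, and the next was 0.349 per Mb. The autosome with the next highest number had 44. Each of the 4 ways to pair an H3K27me3 list with an H3K36me2 list put the chromosome first per Mb, with 27 to 33 regions against at most 17 to 23 elsewhere.

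**Figure D4:**
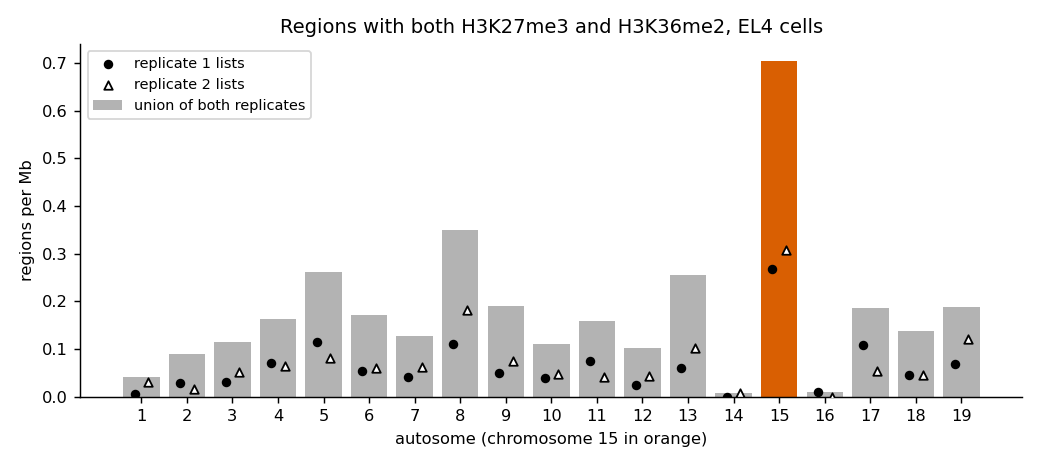
Regions called for both H3K27me3 and H3K36me2 per Mb on each autosome. Bars are merged peaks of both replicates, filled circles the replicate 1 lists and open triangles the replicate 2 lists. Chromosome 15 (orange) stands at 0.705, with 0.268 and 0.308 in the single replicates, above all other autosomes on each measure.

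Support from all lists was thin. All 4 broad lists reached only 3 of the 71 regions, 3 lists reached 39 and 2 lists reached 29. Another autosome had 4 regions reached by all 4 lists. When only base pairs called in both replicates of a mark were kept, 2 regions remained on chromosome 15, of 15 on the autosomes, and another autosome had 3. When merged peaks had to be touched by both replicates, 19 regions remained, of 72, and the highest number elsewhere was 10. The chromosome ranked 2 per Mb by base pairs in both replicates and 1 by peaks touched by both.

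Coverage by both marks was also above the median of the other autosomes, and its part in the number of these regions was not tested. The product of both coverages over the span is the length that both marks would share if placed independently, and came to 5564 kb. The 196.3 kb found were 3.53% of it, against a median of 0.874% elsewhere. By this measure chromosome 15 ranked second, behind chromosome 8 with 4.58%, so on every autosome the marks shared far less than the product. The double-mark kb of chromosome 15 were also 0.991% of all H3K36me2 base pairs, above the highest other value of 0.621%. They were 0.694% of all H3K27me3 base pairs, second to 0.773%. Over the 19 autosomes, the product and the double-mark kb had a Pearson correlation of 0.306, and of 0.118 without chromosome 15. Chromosome 11 had the largest product, 8005 kb, and 34.8 double-mark kb.

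In shape, 36 regions lay where the end of a peak of each mark crossed, 25 were whole H3K36me2 peaks inside H3K27me3 peaks, and 10 were whole H3K27me3 peaks inside H3K36me2 peaks. Their median length was 2199 bp, from 199 to 9799 bp. Of the 71 regions, 45 lay in a gene, 4 within 3 kb of a gene and 22 in neither. A narrow set was touched by 4 regions, H3K27ac in each case, and 5 regions held a listed promoter. Of all merged peaks on this chromosome, 0.734% of H3K27me3 peaks and 32.0% of H3K36me2 peaks touched H3K27ac. Those peaks were mostly longer than the regions, with median widths of 6599 and 7999 bp. The share of the whole span in genes or promoters was not computed, so these counts have no background.

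The region in Rictor, chr15:6707401-6708999, measured 1599 bp and touched all 6 sets, with both replicates of both broad marks. Its promoter sequence is the CG-rich one shown above. The second region called in all 4 broad lists, chr15:88786401-88789399 with 2999 bp, lay within 3 kb of Zbed4, a zinc finger gene, and touched no narrow set. The last, chr15:98635001-98644799, ran for 9799 bp in Cacnb3 up to within 3 kb of Ddx23, a splicing helicase. It touched H3K4me3, H3K9ac, H3K27ac and ATAC-seq peaks as well.

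The other regions among the 5 longest were called in 2 or 3 lists. A region of 9799 bp in Lima1, an actin-binding protein gene, lay at chr15:99851601-99861399 and was a whole H3K27me3 peak of replicate 2 inside H3K36me2. A region of 6799 bp at chr15:102627201-102633999, near Atf7, rested on 1 replicate of each mark. In Prlr, the prolactin receptor gene, 6199 bp at chr15:10227401-10233599 were shared by both H3K27me3 replicates and H3K36me2 replicate 1. In Ctnnd2, a catenin gene of neurons, a region of 5999 bp at chr15:30499401-30505399 was called for H3K27me3 in replicate 2 alone.

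Oxr1, a gene of the response to oxidative stress, held 8 double-mark regions, none of them called in all 4 lists. The bin from 41 to 42 Mb around it held 11, the most on the chromosome, where a bin of another autosome held 15. Cpq, a peptidase gene, held 3. Without the fullest bin of each autosome, 60 regions remained here and at most 36 elsewhere.

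The Hoxc cluster held a border between both broad marks. Hoxc13, Hoxc12 and Hoxc11 lay fully in H3K27me3 with no other set, in both replicates. Hoxc10 and Hoxc9 held all 6 sets, and the region chr15:102972201-102977599, 5399 bp long, started in the interval between them, reached into Hoxc9 and contained Mir196a-2, whose sequences are given above. H3K36me2 replicate 2 did not reach this region. Hoxc6 held H3K4me3, H3K9ac, H3K27ac, ATAC-seq and H3K36me2 without H3K27me3, whereas Hoxc8, Hoxc5 and Hoxc4 held H3K36me2 alone. The Hoxc genes give cells their position along the body axis.

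Genes of the chromosome were scored as holding a set where a merged peak lay in the gene or within 3 kb of it. Over 47042 autosomal genes this was so for 32.5% with H3K4me3, 31.6% with H3K9ac, 33.1% with H3K27ac, 31.5% with ATAC-seq, 26.5% with H3K27me3 and 41.0% with H3K36me2. Of the 776 protein-coding genes of chromosome 15, 36.3% held H3K27me3 against a median of 24.9% on the other autosomes, and 64.8% held H3K36me2 against 58.4%, each ranked 3. The shares of these coding genes with H3K4me3, H3K9ac, H3K27ac and ATAC-seq were 57.6%, 57.6%, 59.2% and 56.7%, and they are the closer background for the lists of coding genes. A share of 7.73% held no set, against a median of 16.7%. The lists that follow were made with earlier results of these data known.

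Translation and housekeeping genes carried active marks almost throughout. Of 17 genes, 16 held H3K4me3, H3K9ac, H3K27ac and ATAC-seq, each in both replicates, and none held H3K27me3. Rpl30, a ribosomal protein gene, had H3K4me3 over 40.9% and H3K36me2 over all of its window. The exception was Rpl3, also a ribosomal protein gene, which held no peak of any set. For chromatin and transcription genes, 21 of 22 held H3K27ac and 22 held H3K36me2. Kmt2d, a methyltransferase of H3K4, and Ep300, an acetyltransferase of H3K27, held every set but H3K27me3. Sp1, a transcription factor, held H3K36me2 only.

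Lymphoid and myeloid genes were split. Of 29 genes, 19 (65.5%) held H3K27ac, 20 (69.0%) H3K36me2 and 9 (31.0%) H3K27me3, shares close to those of all coding genes of the chromosome. Il7r, the interleukin 7 receptor gene, had H3K36me2 over 94.0% of its window and H3K4me3 over 13.5%, in both replicates, and no H3K27me3. Rac2, Grap2, Sla and Ly6e, all used in T cell signalling or surface biology, also held H3K4me3 and H3K27ac in both replicates. Lifr and Osmr, receptors of the interleukin 6 family, were covered by H3K27me3 over 86.2% and 92.6% and held nothing else, and Itga5, an integrin, over all of its window.

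The labelled cell type was checked on 7 T lineage genes of the chromosome. Il7r, Fyb, Grap2, Ly6a, Ly6e and Itgb7 held H3K27ac and H3K36me2 in both replicates. Fyb also held H3K27me3 over 21.2% of its window in both replicates. Il2rb, the interleukin 2 receptor beta gene, lacked H3K27ac and H3K36me2 and had an H3K27me3 peak over 14.1% of its window in replicate 1 only. Outside these 7 genes, Ly6c1 and Ly6c2 lacked H3K27ac, while Ncf4, a subunit of the phagocyte oxidase, and Nfe2, a factor of blood cell precursors, held H3K4me3, H3K27ac and H3K36me2 in both replicates. The marks on these genes therefore do not separate T cells from other blood cells. Itgb7 lacked H3K4me3. The keratinocyte genes Krt1 and Krt5 held H3K27me3 over their whole windows in both replicates and no other set.

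**Figure D5:**
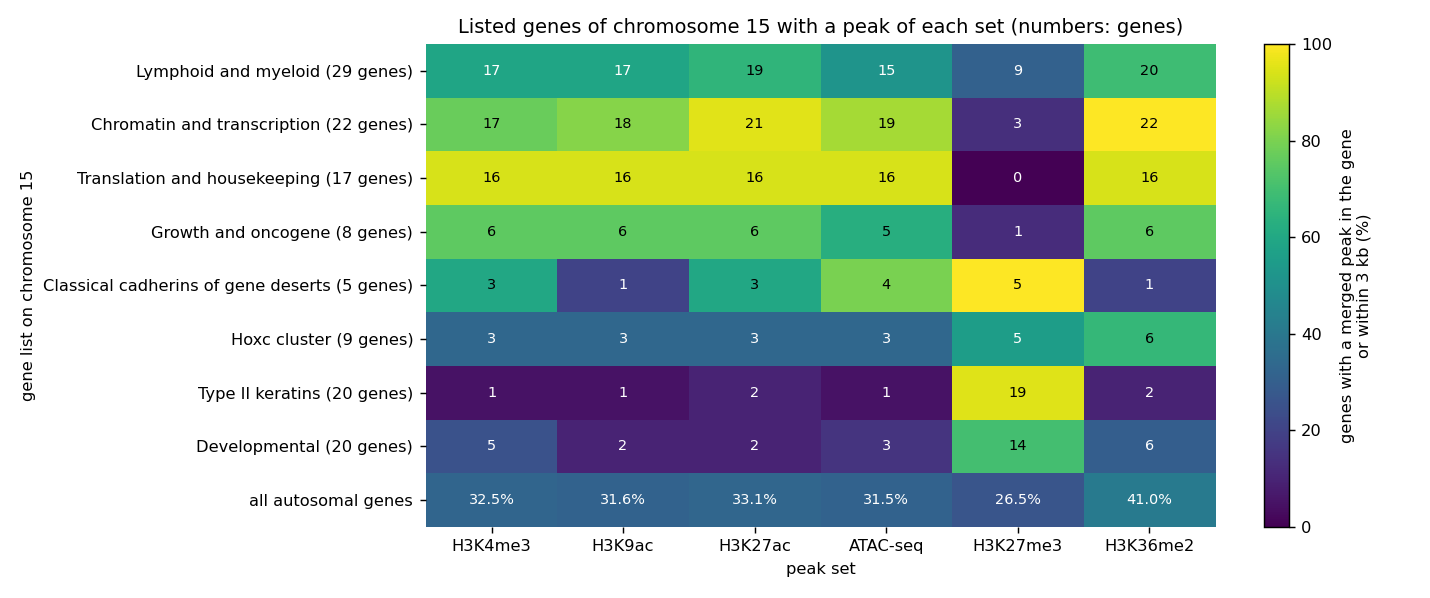
Number of genes of each list on chromosome 15 with a merged peak of each set in the gene or within 3 kb, coloured by the percent of the list, with the percent of all autosomal genes in the bottom row. Type II keratins, which lie side by side and can share a peak, hold H3K27me3 in 19 of 20 genes. Translation and housekeeping genes hold it in 0 of 17.

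The growth and oncogene list held active marks in most members, as did the coding genes of the chromosome. Of 8 genes, 6 (75.0%) held H3K4me3 and H3K27ac, against 57.6% and 59.2% of those coding genes. ATAC-seq was held by 5 (62.5%) against 56.7%. A list of 8 genes is too short to tell these shares apart. Myc, a master regulator of growth, had H3K4me3 over 60.04% and H3K27ac over 46.1% of its window in both replicates, and H3K36me2 in replicate 2 only. It held no H3K27me3. Pvt1 had H3K36me2 over 92.5%. Ptk2, the focal adhesion kinase gene, had H3K27me3 over 63.0% of its window and no other set, and Pdgfb had no peak.

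Most genes of other tissues held an H3K27me3 peak, though not always over much of the gene. Of 20 type II keratins, which build the filaments of epithelia, 19 held H3K27me3 in both replicates. Krt8, a keratin of simple epithelia at the end of the cluster, was the exception and held H3K27ac and H3K36me2, and Krt78 held all 6 sets. All 5 classical cadherins of the gene deserts, which join cells to each other, held H3K27me3, with 78.0% of the window in Cdh10 and 2.32% in Cdh12. Of these 5 genes, 4 also held ATAC-seq, 3 H3K4me3 and 3 H3K27ac, shares not below those of all coding genes of the chromosome. None of these 3 sets covered more than 0.368% of a window, and the score counts any touch. Of 20 developmental genes, 14 held H3K27me3, 12 of them in both replicates, and the median over the 20 was 17.3% of the window. Coverage ran up to 94.0% in Nell2 and 94.3% in Prlr, which also held the other 5 sets, and down to 0.418% in Has2 and 0.837% in Csmd3. Wnt1, Wnt10b, Wnt7b, Col2a1 and Trps1 held no set.

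Promoters in different marks differed in CG content. Of the 936 listed promoters of 761 genes on chromosome 15, 31.6% lay in H3K4me3, with a median of 23 CG. H3K27me3 held 23.8%, with a median of 4 CG, against 13.0% on the other autosomes. H3K36me2 held 27.8%, with a median of 11 CG, against 19.4%. Only 5 promoters lay in both broad marks, those of C9, Rictor, Tafa5 and the noncoding genes Gm41284 and Gm32499. Their median was 3 CG, and that of the 51 such promoters on the other autosomes was 24 CG. Of the 936 promoters, 31.6% lay in no set, against 44.1% elsewhere.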

How the data were processed

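ChIP-seq and ATAC-seq of EL4 cells were used as the lists of called intervals the authors deposited, 1 for each of 12 samples. Input and RNA-seq were not used here. Per the labels and the methods, the authors aligned reads to GRCm38 with STAR 2.5, kept unique alignments, treated duplicates with Picard, and used macs2 to call the narrow sets and Epic to call both broad marks, with input as the ChIP control. The deposited columns are chromosome, start and end in base pairs, with no score or read count. Widths of all broad intervals plus 1 bp are multiples of 200 bp, which limits the precision of broad edges.

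Lists were compared as intervals on the 19 autosomes, with both replicates merged and at least 1 bp of overlap. Genes and promoters are those of RefSeq GRCm38.p6. The chromosome and gene lists were chosen with earlier results of these data known. Named genes are all members of 8 lists on the chromosome (130 genes). Named regions are those touched by both replicates of both broad marks and the 5 longest. The fullest bins named were taken from the 3 fullest of each set, not all of which are named. Oxr1, Cpq, the Hoxc and Myc borders, the longest peaks, the 3 blocks and the promoters shown were chosen after their values were seen. Alternatives were other ways to join replicates, single replicates, gaps of 1000 bp, widths of at least 500 bp, genes as denominator, an overlap of 50% and other bins. Functions were tested on simulated data and against bedtools 2.31.1, in Python 3.11.15 with numpy 2.4.6, pandas 2.3.3 and matplotlib 3.10.9.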

Additional observations from a re-analysis of the deposited data

How the results depend on the processing

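No paired analysis was possible because no test was fitted and all values are descriptions. Of 88 alternative values, 49 stayed within the spread between replicates (1 SD) or, for counts, within 1.5 times the value reported, and 39 moved by more. No density ratio changed sides of the median of the other autosomes. Keeping base pairs called in both replicates gave density ratios of 1.120 for H3K9ac, 1.183 for H3K27ac, 1.746 for H3K27me3 and 0.9906 for H3K36me2, and 2 double-mark regions (no ratio, since the median elsewhere was 0). Keeping merged peaks touched by both replicates gave 1.061 for H3K4me3, 1.119, 1.149, 1.643 and 0.9371 for H3K9ac, H3K27ac, H3K27me3 and H3K36me2, and 19 regions with a ratio of 11.65. Merging within 1000 bp gave 1.069, 1.073, 1.113 and 1.348 for H3K4me3, H3K9ac, H3K27ac and H3K27me3, and widths of at least 500 bp gave 1.070 and 1.114 for H3K4me3 and H3K9ac. With genes as denominator the ratios were 1.160, 1.244, 1.277, 1.182 and 0.9280 for H3K4me3, H3K9ac, H3K27ac, ATAC-seq and H3K36me2, and 5.311 for double-mark regions. An overlap of 50% of the shorter interval left 44 regions with a ratio of 5.185. Single replicates ranged from 1.127 to 1.136 for H3K9ac, 1.170 to 1.179 for H3K27ac, 1.609 to 1.620 for H3K27me3 and 0.9050 to 0.9266 for H3K36me2. They gave 27 to 31 regions and ratios from 5.632 to 5.836. Bins with both broad marks numbered 117 at 0.5 Mb and 45 at 2 Mb. Leaving out the fullest bin of each autosome, an alternative chosen after seeing the data, gave a ratio of 4.77. The cause of these shifts was not tested. Depth was not given by the lists, so a position without a peak may hold the mark below the caller's threshold.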

Other observations

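Of 60 mature microRNAs listed on chromosome 15 (35 genes), 37 (61.7%) lay in H3K36me2, 8 (13.3%) in H3K27me3 and 4 (6.67%) in H3K4me3. Of 1521 on the other autosomes, the shares were 41.4%, 10.5% and 9.07%. Products of 1 gene or cluster often lie in the same peak, and no test was run. The 2 of chromosome 15 in a double-mark region were both products of Mir196a-2.

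The longest run of 1 Mb bins without a peak of any narrow set lay from 45 to 51 Mb, over Kcnv1, a potassium channel gene, Csmd3 and Trps1, a zinc finger gene. H3K27me3 covered 13.2 kb of these 6 Mb in 4 peaks, and H3K36me2 none. From 23 to 25 Mb, which holds part of Cdh18, H3K27me3 covered 564.7 kb in 74 peaks and H3K36me2 again none.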
